A study of Mus musculus with 20 samples.

Results

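The lymphocyte markers described here are 9 genes that mark T cells or B cells and were read by symbol from the raw count table of 24411 genes: *Cd3d*, *Cd3e*, *Cd3g*, *Cd247*, *Lck*, *Cd4*, *Cd8a*, *Cd8b1* and *Ms4a1*. All 9 were in the table. Whole kidneys were taken at P125 from 20 C57BL/6 mice, with 5 controls and 5 mutants of each sex in 4 groups, and total RNA was sequenced with 1 library per mouse. Mutants carried floxed *Pkd2* alleles with *Pax8rtTA* and *TetOCre*, and controls were littermates that lacked *Pax8rtTA* or *TetOCre*. Every mouse, controls included, received doxycycline (DOX) at 50 mg per kg from P27 to P29, which switches on Cre where the *Pax8* promoter is active. In the kidney that is the tubule epithelium, and lymphocytes were not the intended target. The mice came from 3 litters (A, B and C). Single mice are named by sex, genotype and number, with MC and MM for male controls and mutants and FC and FM for female controls and mutants.

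A T cell recognises antigen through its T cell receptor, whose antigen-binding chains have almost no cytoplasmic part. The signal is passed on by the CD3 chains (*Cd3d*, *Cd3e*, *Cd3g*) and the zeta chain (*Cd247*), which are phosphorylated by the kinase *Lck*. The coreceptor CD4 binds MHC class II and marks helper and regulatory T cells, the coreceptor CD8 (*Cd8a* with *Cd8b1*) binds MHC class I and marks cytotoxic T cells, and both bring *Lck* to the receptor. CD20, encoded by *Ms4a1*, is a surface protein of B cells. In the kidney these cells lie mainly in the interstitium between tubules and vessels, and a bulk library holds their RNA in a small share beside that of tubule cells. Fewer cells of a type and less RNA per cell cannot be told apart in such libraries.

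The libraries of 19 mice held 12726655 to 19324073 counts with 16776 to 17724 genes detected and 708 to 859 genes at a single count. The library of FM4 stood apart, with 11307741 counts, 14850 genes detected and 76 genes at a single count. Among the markers, *Cd3d*, *Cd3e* and *Ms4a1* each had 0 counts in FM4, where a count of 0 allows up to 3 counts or 0.259 CPM (counts scaled to the library total). Tests of the markers that include female mutants are therefore given with and without FM4. *Pkd2* stood at 291 ± 31.1 CPM in male controls, 119 ± 9.86 in male mutants, 257 ± 49.1 in female controls and 145 ± 33.6 in female mutants (SD, n = 5 each), which differs by genotype as the labels say. Kidney weight as a percentage of body weight (KBW) was 0.692 ± 0.117 and 1.68 ± 0.338 in male controls and mutants and 0.615 ± 0.0448 and 1.18 ± 0.261 in female controls and mutants (SD, n = 5 each). Kidney tubule and podocyte genes, which check the tissue, summed to at least 9532 CPM in every mouse, whereas the 9 lymphocyte markers summed to between 6.1 and 30.4 CPM.

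The CD3 genes form a cluster on mouse chromosome 9 (GRCm38, the build that mm10 names). *Cd3g* lies on the minus strand at chr9:44969572-44980431 and *Cd3d* on the plus strand at chr9:44981786-44987339, so that 1354 bases separate their divergent starts. *Cd3e* follows on the minus strand at chr9:44998740-45009627. The bases upstream of *Cd3g* and *Cd3d* are shown because these neighbours share this short interval and their levels are compared mouse by mouse below. The sequences are from RefSeq (GRCm38.p6) and are written 5′ to 3′ on the strand of each gene. Capitals mark the letters CACCTG, an E-box, which was searched on both strands as CACCTG and CAGGTG after the sequences had been looked at.

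*Cd3g* upstream, minus strand, chr9:44980432-44980681: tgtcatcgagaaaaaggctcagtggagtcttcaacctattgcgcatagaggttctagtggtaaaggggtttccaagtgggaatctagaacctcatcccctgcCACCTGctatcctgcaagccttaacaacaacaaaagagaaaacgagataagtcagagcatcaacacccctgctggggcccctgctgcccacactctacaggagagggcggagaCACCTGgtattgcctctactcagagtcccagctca

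*Cd3d* upstream, plus strand, chr9:44981536-44981768: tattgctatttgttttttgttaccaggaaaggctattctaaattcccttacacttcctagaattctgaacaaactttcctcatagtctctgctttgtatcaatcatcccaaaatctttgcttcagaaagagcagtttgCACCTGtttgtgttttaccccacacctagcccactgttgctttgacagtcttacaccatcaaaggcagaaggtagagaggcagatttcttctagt

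The E-box occurred 2 times upstream of *Cd3g* and 1 time upstream of *Cd3d*. Of the 7 RefSeq promoter windows of 300 bases found for 6 of the markers, 6 held it, and by gene 5 of the 6 markers did. Over all 32851 windows the share was 20.2%. The *Cd3g* and *Cd3d* windows, looked at before the search, are among the 6, so this comparison is no test of enrichment. The window without it was that of *Cd8a*. A match of letters is a description of the sequence and not a bound site.

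Every marker was present at a low level. Raw counts ran from 0 in FM4 to 131 for *Cd4* in FM3, so that most values rest on fewer than 100 counts. Per kilobase of exon, the mean over the 20 mice was highest for *Lck* (0.935 ± 0.486 CPM per kb, SD) and lowest for *Ms4a1* (0.0684 ± 0.0458 CPM per kb). The other T cell genes lay between 0.203 CPM per kb for *Cd247* and 0.621 for *Cd8a*.

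**Figure D1:**
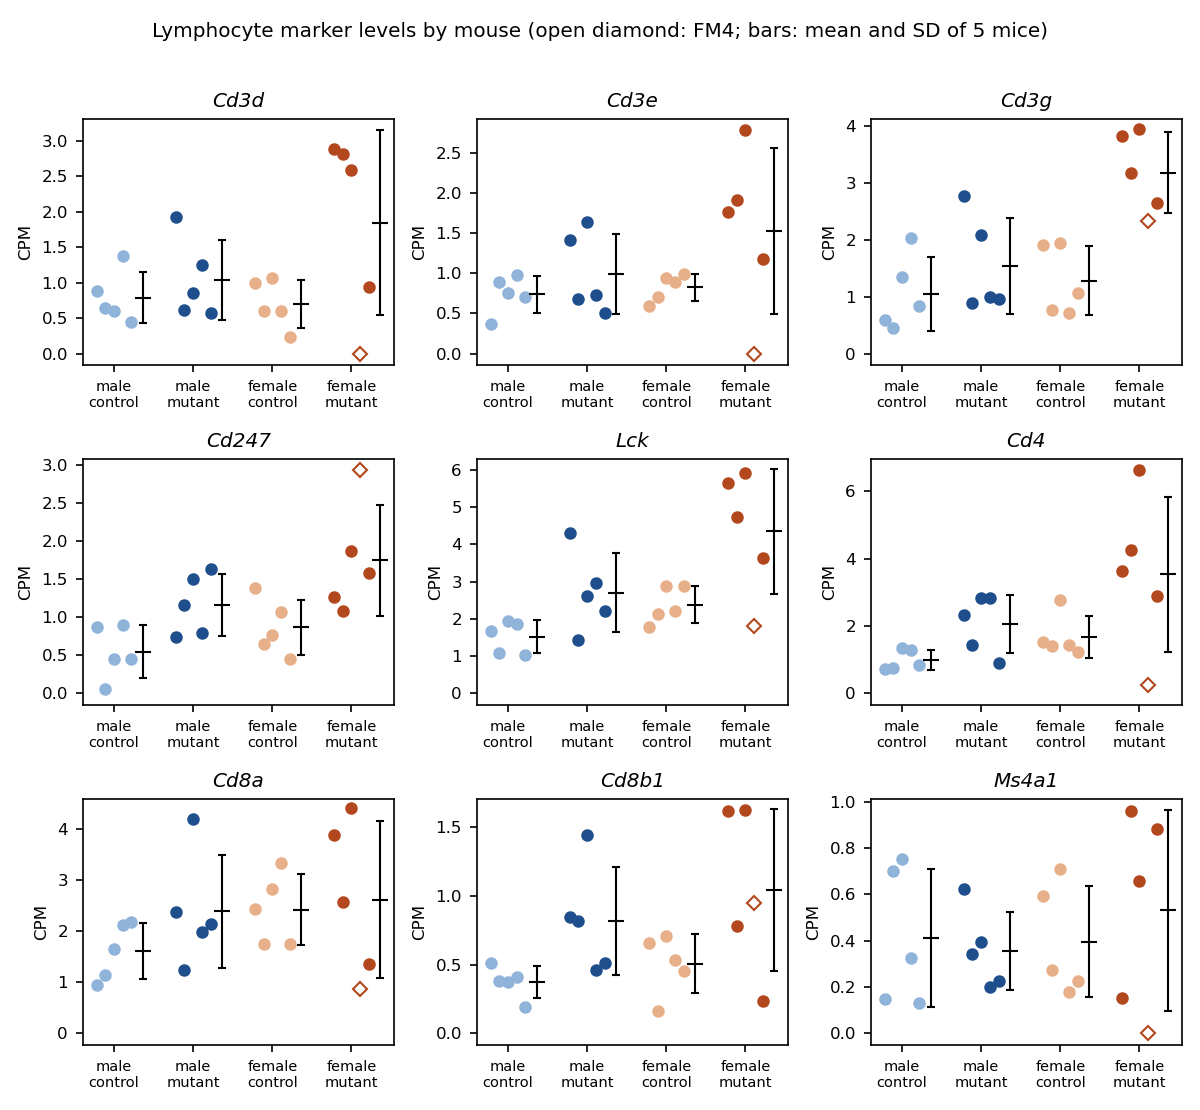
Level of each lymphocyte marker in CPM (y axis) for every mouse in the 4 groups (x axis), with the mean and SD of 5 mice as a bar beside the points and FM4 as an open diamond. Female mutants had the highest group mean for all 9 genes, and FM4 lay at 0 for *Cd3d*, *Cd3e* and *Ms4a1* but at the top of its group for *Cd247*.

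The mean level was highest in female mutants for all 9 markers, as the plot of levels by mouse shows. With all mice, the gap to the next group exceeded the larger of the 2 SDs only for *Cd3g*. Without FM4 it did so for *Cd3d*, *Cd3e*, *Cd3g*, *Cd4* and *Lck*, and not for *Cd8a*, *Cd8b1*, *Cd247* and *Ms4a1*. Male mutants came next in order for all markers except *Cd8a* and *Ms4a1*, and for none of these did the gap to the third group exceed the SD. Where the 2 control groups were neighbours in this order, females stood above males by more than the SD for *Cd4* and *Lck* only. The female mutant FM3 had the highest level of all 20 mice for 6 of the 9 markers and was above the median of the 20 for all 9.

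Of the CD3 chains, *Cd3g* separated the female groups completely. Its level was 1.91, 0.763, 1.95, 0.715 and 1.06 CPM in FC1 to FC5 and 3.83, 3.18, 3.95, 2.33 and 2.64 CPM in FM1 to FM5. Every female mutant, FM4 included, was above every female control, which held for 3.71% of the 14820 genes with enough counts over the 4 groups. The level was 0.585, 0.445, 1.35, 2.03 and 0.836 CPM in MC1 to MC5 and 2.77, 0.888, 2.1, 0.99 and 0.959 CPM in MM1 to MM5. The male groups overlapped, and only MM1 and MM3 were above the highest male control. In females *Cd3g* was higher in mutants by 1.37 ± 0.35 on the log2 scale (SE), with an adjusted p of 0.0452, and by 1.45 ± 0.32 without FM4 with an adjusted p of 0.0154. A gene was called when the adjusted p of the quasi-likelihood test was under 0.01, and *Cd3g* missed this in both. In males the difference was 0.53 ± 0.45 with an adjusted p of 0.445.

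*Cd3d* followed *Cd3g* in most mice but not in FM4. It stood at 2.88, 2.82, 2.58, 0 and 0.94 CPM in FM1 to FM5, against 0.989, 0.6, 1.06, 0.595 and 0.228 CPM in FC1 to FC5. In males it was 0.878, 0.635, 0.601, 1.38 and 0.45 CPM in MC1 to MC5 and 1.92, 0.615, 0.852, 1.25 and 0.564 CPM in MM1 to MM5. FM1 to FM3 were above every female control, FM5 was within their range, and the male groups overlapped. FM4 had 0 counts of *Cd3d* but 27 of its neighbour *Cd3g*. Across mice, the correlation of the log2 CPM of *Cd3d* and *Cd3g* was 0.47 over 20 libraries and 0.77 over 19 without FM4. *Cd3d* was higher in female mutants by 1.48 ± 0.67 on the log2 scale with an adjusted p of 0.245, and by 1.81 ± 0.27 without FM4, where it was called with an adjusted p of 0.00291. In males the difference was 0.39 ± 0.38 with an adjusted p of 0.516. In both sexes together it was 0.95 ± 0.41 with an adjusted p of 0.0971, and 1.11 ± 0.28 without FM4 with an adjusted p of 0.00554.

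*Cd3e* was 1.77, 1.92, 2.78, 0 and 1.17 CPM in FM1 to FM5 and between 0.593 and 0.987 CPM in female controls. All 4 female mutants other than FM4 were above every female control. The log2 difference in females was 0.96 ± 0.65 with an adjusted p of 0.464, and 1.27 ± 0.30 without FM4 with an adjusted p of 0.0205. In males *Cd3e* ranged from 0.366 to 0.974 CPM in controls and from 0.508 to 1.64 CPM in mutants, with a difference of 0.33 ± 0.39 and an adjusted p of 0.591. *Cd3e* overlaps an antisense transcript, and the strand setting of the counts is not given in the sources used here.

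The zeta chain gene *Cd247* (chr1:165788681-165877277, plus strand) behaved differently from the CD3 genes in FM4. It stood at 1.26, 1.08, 1.87, 2.93 and 1.59 CPM in FM1 to FM5, so that FM4 was the highest of all 20 mice. The other groups ranged from 0.0635 to 0.893 CPM in male controls, from 0.735 to 1.64 in male mutants and from 0.456 to 1.38 in female controls. Both mutant groups overlapped their controls. The joint comparison of mutants with controls in both sexes, in which the 6 groups of sex and litter were a covariate, gave a log2 difference of 1.02 ± 0.31 with an adjusted p of 0.0210, and 0.89 ± 0.30 without FM4 with an adjusted p of 0.0290. The span of *Cd247* holds parts of 6 other annotated genes, among them *Pou2f1* on the other strand, so that reads of these genes may not be separated.

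*Lck* (chr4:129548344-129573641, minus strand) was the only marker called in the joint comparison of all 20 mice. Its level was 1.68, 1.08, 1.95, 1.87 and 1.03 CPM in MC1 to MC5 and 4.3, 1.43, 2.62, 2.97 and 2.2 CPM in MM1 to MM5. In females it was 1.78, 2.13, 2.89, 2.2 and 2.89 CPM in FC1 to FC5 and 5.65, 4.73, 5.92, 1.81 and 3.64 CPM in FM1 to FM5. In each sex 4 of 5 mutants were above the highest control, and the exceptions were MM2 and FM4. The joint log2 difference was 0.87 ± 0.23 with a 95% interval of 0.38 to 1.35 and an adjusted p of 0.00901, and without FM4 it was 0.97 ± 0.20 with an adjusted p of 0.000975. When each mouse in turn was left out, *Lck* was called in 4 of 20 fits (without MM2, FM4, FM5 or FC5) and not in the other 16, with adjusted p-values from 0.000975 to 0.0387.

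The coreceptor genes differed among themselves. *Cd4* (chr6:124864692-124888221, minus strand) was 0.732, 0.762, 1.35, 1.3 and 0.836 CPM in MC1 to MC5 and 2.32, 1.43, 2.82, 2.84 and 0.903 CPM in MM1 to MM5. In females it was 1.52, 1.42, 2.77, 1.43 and 1.21 CPM in FC1 to FC5 and 3.63, 4.26, 6.63, 0.259 and 2.88 CPM in FM1 to FM5. In both sexes 4 of 5 mutants were above every control of the same sex, with MM5 and FM4 as the exceptions. FM4 had 3 counts of *Cd4*, equal to the floor set for a count of 0, which covers counting error only. The joint log2 difference was 1.01 ± 0.34 with an adjusted p of 0.0335, and without FM4 it was 1.18 ± 0.20, a 2.26-fold higher level, with an adjusted p of 0.000238. Without FM4 *Cd4* was also called in females, at 1.45 ± 0.28 with an adjusted p of 0.00789, whereas the male difference of 0.87 ± 0.28 had an adjusted p of 0.0516.

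*Cd8a* (chr6:71373427-71379173, plus strand) showed the smallest difference of the markers tested in both sexes jointly. It ranged from 0.951 to 2.19 CPM in male controls with a median of 1.65, and from 1.23 to 4.19 CPM in male mutants with a median of 2.14. In female controls it ranged from 1.74 to 3.33 CPM with a median of 2.44, and in female mutants it was 3.89, 2.58, 4.4, 0.862 and 1.35 CPM in FM1 to FM5. FM4 and FM5 were thus below every female control, while FM1 and FM3 were above all of them. The joint log2 difference was 0.25 ± 0.26 with a 95% interval of -0.29 to 0.78 and an adjusted p of 0.522, and 0.37 ± 0.21 without FM4 with an interval of -0.06 to 0.81 and an adjusted p of 0.178. Both intervals include 0 and reach 0.78 and 0.81, so they do not show that the groups were alike.

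*Cd8b1* (chr6:71322788-71337494, plus strand), which encodes the partner chain of CD8 and lies 35932 bases from *Cd8a*, had too few counts for the joint and the male comparison. It ranged from 0.193 to 0.512 CPM in male controls, from 0.462 to 1.44 in male mutants, from 0.164 to 0.707 in female controls and from 0.235 to 1.62 in female mutants. FM5 was the lowest female mutant, and the groups of each sex overlapped. An exact permutation test of log2 CPM within sex, two-sided over 63504 relabellings, gave a difference of 0.82 with an unadjusted p of 0.0108, and 0.80 with an unadjusted p of 0.0198 without FM4. In the joint fit with no filter on low counts the adjusted p was 0.0340, and 0.0197 without FM4.

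Counts of *Cd4* relative to those of *Cd8a* give a measure within each library that does not depend on its depth. The median ratio was 0.667 in male controls and 0.976 in male mutants, 0.696 in female controls and 1.51 in female mutants. FM4, with 3 counts of *Cd4* and 10 of *Cd8a*, had the lowest ratio of all mice at 0.3. The ratio was 1.47-fold higher in mutants with all mice (exact permutation p = 0.0989, two-sided, within sex) and 1.73-fold higher without FM4 (exact permutation p = 0.00816). This measure was chosen after the values of both genes had been seen.

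**Figure D2:**
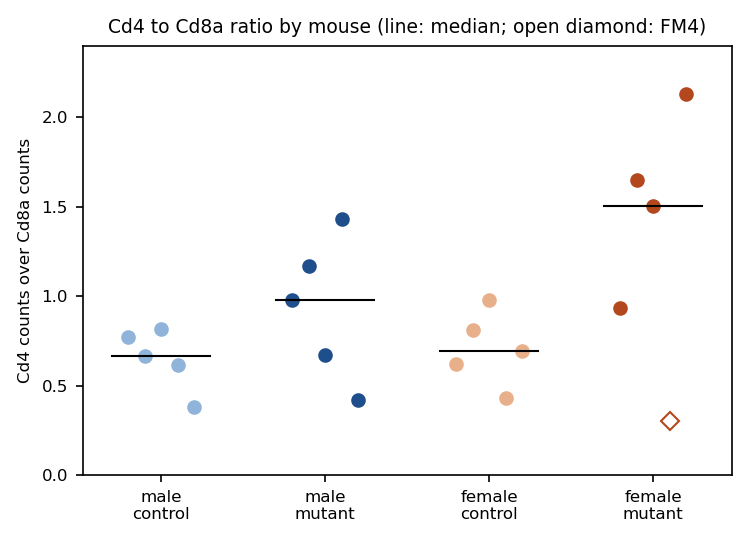
Ratio of *Cd4* counts to *Cd8a* counts (y axis) in each mouse by group (x axis), with the group median as a line and FM4 as an open diamond. The medians were 0.667 and 0.976 in male controls and mutants and 0.696 and 1.51 in female controls and mutants, and the groups of each sex overlapped.

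The B cell gene *Ms4a1* (chr19:11249675-11266241, minus strand) had at most 16 counts in any mouse. It was 0.151, 0.959, 0.658, 0 and 0.881 CPM in FM1 to FM5, from 0.179 to 0.707 CPM in female controls, from 0.129 to 0.751 in male controls and from 0.198 to 0.622 in male mutants. All groups overlapped. The exact permutation test within sex gave a log2 difference of 0.0091 with p = 0.982, and 0.26 with p = 0.447 without FM4. *Ms4a1* passed the filter on low counts only in the females without FM4, in the mutants of both sexes without FM4 and in the sex by genotype fits.

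**Figure D3:**
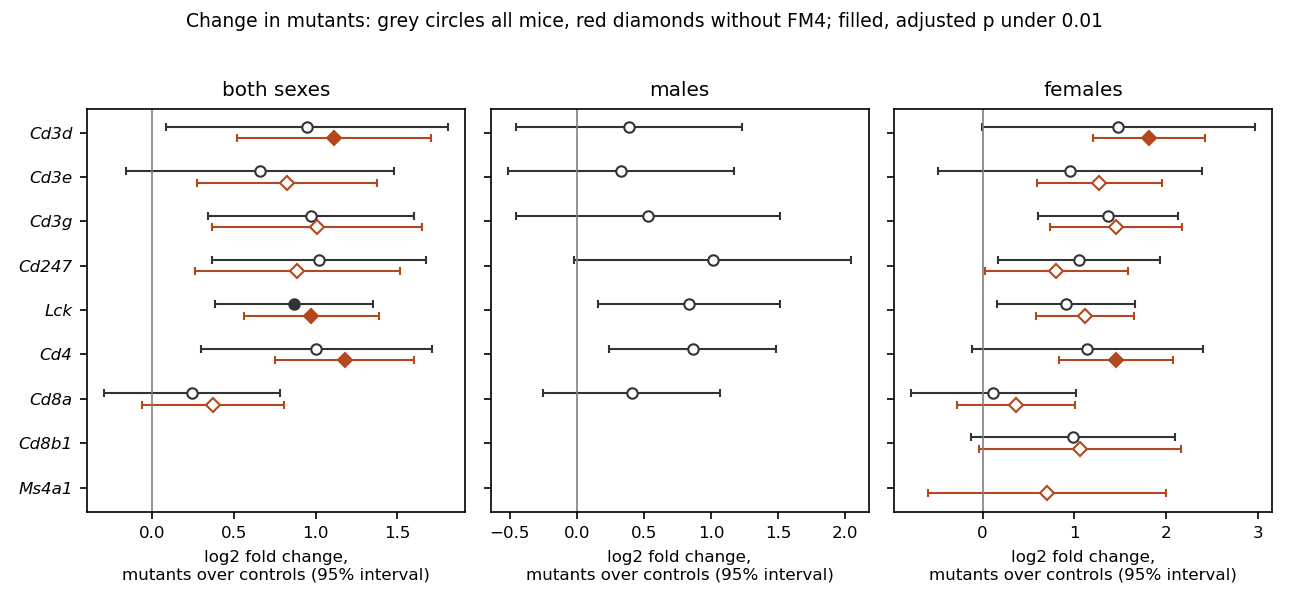
Log2 fold change of mutants over controls (x axis) with its 95% interval for each marker (y axis), in both sexes together, in males and in females, with all mice (grey circles) and without FM4 (red diamonds). Filled symbols have an adjusted p under 0.01, and these are *Lck* with all mice, *Lck*, *Cd4* and *Cd3d* in both sexes without FM4, and *Cd3d* and *Cd4* in females without FM4.

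Of the markers, 7 of 9 had enough counts for the joint comparison, and all 7 estimates were above 0, with a median of 0.95 on the log2 scale against a median of -0.01 over all 14191 genes tested. Of these, 1 of 7 was called higher, while 10.0% of all genes tested were called higher, so the count of calls does not set the markers apart from other genes. At an unadjusted p under 0.05 there were 5 of 7, against 37.7% of all genes in either direction. Without FM4, 3 of 7 were called higher against 12.5% of all genes, and 6 of 7 had an unadjusted p under 0.05 against 42.6%. Members that passed the filter did so partly through the groups in which they were high, and no test over the list was made.

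Within a sex the calls were fewer. In males 0 of 7 tested markers were called higher, against 5.25% of all genes, with 2 of 7 at an unadjusted p under 0.05 (*Cd4* and *Lck*), against 33.7% of all genes in either direction. In females 0 of 8 were called, against 0.457% of all genes, with 3 of 8 at an unadjusted p under 0.05 (*Cd3g*, *Lck* and *Cd247*), against 20.6% of all genes in either direction. Without FM4, 2 of 9 were called in females (*Cd3d* and *Cd4*), against 4.68% of all genes, and 6 of 9 had an unadjusted p under 0.05, against 28.8% of all genes in either direction. In the same 9 mice, every female mutant was above every female control for *Cd3e*, *Cd3g*, *Cd4* and *Lck*, a pattern held by 7.33% of all genes. In males 0 of 9 markers had every mutant above every control, against 8.68% of all genes.

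The difference between the sexes in the response was tested directly by a sex by genotype term. It was called for 0 of 9 markers and for 0% of all genes with all mice, where every marker had an adjusted p of 1. Without FM4 it was called for 0 of 9 markers and for 0.0201% of all genes, and the smallest unadjusted p was 0.0108 for *Cd3d*, whose change was 1.39 ± 0.48 higher on the log2 scale in females, with an adjusted p of 0.536. The larger female values are therefore not shown to differ from the male ones.

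In controls, 0 of the 6 tested T cell markers differed by sex at an adjusted p under 0.01, whereas 17.8% of all genes did. The estimates for males relative to females ran from -0.63 ± 0.52 for *Cd247* to 0.06 ± 0.33 for *Cd3e*. In mutants 0 of 8 markers were called, against 5.42% of all genes, and all 8 estimates were lower in males. The largest was -1.11 ± 0.37 for *Cd3g*, with an adjusted p of 0.0688. Without FM4, 0 of 9 were called, against 9.12% of all genes, and the estimates for *Cd4* (-1.07 ± 0.25, adjusted p = 0.0156), *Cd3g* (-1.19 ± 0.35, adjusted p = 0.0351) and *Cd3d* (-1.15 ± 0.34, adjusted p = 0.0365) missed the threshold.

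Litter is the batch that the labels give. The mutant minus control difference in log2 CPM, averaged over the sexes, was positive in each of litters A, B and C for *Lck* (1.13, 0.58 and 0.67), *Cd4* (1.05, 0.64 and 0.63), *Cd3g* (0.99, 0.51 and 0.70), *Cd247* (0.51, 0.66 and 1.58) and *Cd8b1* (0.98, 0.99 and 0.15). These averages hide a lower value in the mutant males of litter B for *Cd3g* (-0.45), in the mutant female of litter C for *Cd8b1* (-0.69) and in that of litter A for *Cd247* (-0.12). It was not positive throughout for *Cd3d* (1.01, -0.07 and 0.93), *Cd3e* (0.98, 0.03 and -0.08), *Cd8a* (0.55, 0.11 and -0.18) and *Ms4a1* (-0.68, -0.05 and 0.99). FM4 belongs to litter B, and without it the litter B values were 0.68 for *Cd3d*, 0.74 for *Cd3e* and 0.42 for *Ms4a1*. Litter C holds 1 mouse per group and litter A 1 female per genotype, so these values have no replicate error of their own.

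The relation of the markers to KBW in the 10 mutants depended on how sex was treated. Over the 10 mutants pooled, 0 of 9 markers had a permutation p under 0.05, against 15.1% of the 14820 genes, and no gene passed an adjusted p of 0.01. *Cd8a* had the highest coefficient (r = 0.58, permutation p = 0.0811, adjusted p = 0.397; rho = 0.58, permutation p = 0.0875, adjusted p = 0.472) and *Cd247* the lowest (r = -0.59, permutation p = 0.0703, adjusted p = 0.376; rho = -0.41, permutation p = 0.246, adjusted p = 0.640). For *Lck* r was 0.23 (permutation p = 0.527, adjusted p = 0.794) and rho 0.20 (permutation p = 0.586, adjusted p = 0.836). Without MM1 and FM4, the mice farthest from the median KBW, r was 0.56 for *Cd8a*, 0.10 for *Cd247* and -0.18 for *Lck*, so the coefficient of *Cd247* rests on those mice. With only FM4 left out, 0 of 9 markers had a permutation p under 0.05, and r was -0.0023 for *Cd3d* and -0.02 for *Cd3e*, against 0.44 and 0.45 with FM4. Centred within litter with the sexes pooled, 0 of 9 had an exact permutation p under 0.05, with r = 0.23 for *Lck* (exact permutation p = 0.610) and -0.11 for *Cd3g* (exact permutation p = 0.815).

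Male mutants had the heavier kidneys (KBW 1.22 to 2.15, against 0.836 to 1.46 in females) and the lower mean level of all 9 markers. Between male and female mutants, 0 of 8 tested markers were called, against 5.42% of all genes. Whether sex accounts for the gap between pooled and within-sex coefficients was not tested. When both measures were centred within sex, the coefficient was 0.89 for *Lck* (exact permutation p = 0.00125, two-sided over 14400 orders within sex) and 0.87 for *Cd3g* (exact permutation p = 0.000625). It was 0.79 for *Cd8a* (exact permutation p = 0.00944), 0.68 for *Cd3d* (exact permutation p = 0.00597) and 0.66 for *Cd3e* (exact permutation p = 0.00764). These p-values are unadjusted. The adjusted p over all 14820 genes was 0.106 for *Lck* and *Cd3g*, the smallest that any gene had, and none of the 5 passed. A positive relation at an unadjusted p under 0.05 was held by 5 of 9 markers and by 12.6% of all genes. Without FM4, which had the lowest KBW of all mutants, 4 of 9 markers held it (*Lck*, *Cd3g*, *Cd8a* and *Cd3d*), against 8.79% of all genes, with r = 0.91 for *Lck* (exact permutation p = 0.00972, adjusted p = 0.257) and r = 0.87 for *Cd3g* (exact permutation p = 0.00208, adjusted p = 0.247). Centred within sex and litter together, r was 0.92 for *Lck* (exact permutation p = 0.0833), 0.94 for *Cd3g*, 0.83 for *Cd8a* and 0.70 for *Cd3e* (exact permutation p = 0.0417 for these 3). That is the smallest p that the 24 orders allow, and it was reached by 3 of 9 markers and by 9.62% of all genes in either direction. FM1, FM5 and MM5 were each the only mutant of their sex and litter, so this centring takes them out of the coefficients. The coefficients rest on the other mutants, FM4 included, and were not computed without FM4.

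The order of the mice shows the pattern behind these coefficients. In female mutants, from the lowest to the highest KBW (FM4, FM5, FM2, FM1, FM3), the log2 CPM of *Lck* was 0.95, 1.91, 2.28, 2.53 and 2.60, that of *Cd3g* was 1.30, 1.47, 1.72, 1.99 and 2.03, and that of *Cd8a* was -0.02, 0.56, 1.43, 2.00 and 2.18. All 3 genes kept the order of KBW in all 5 females, with FM4 as the lowest point. The share of all genes that kept this order was not computed, so it has no background. In male mutants, from the lowest to the highest KBW (MM2, MM4, MM5, MM3, MM1), *Lck* was 0.64, 1.63, 1.22, 1.46 and 2.14. *Cd3g* was 0.02, 0.16, 0.12, 1.15 and 1.53 and *Cd8a* was 0.44, 1.08, 1.18, 2.11 and 1.32 in the same males, so the order held less closely. *Cd4* (r = 0.57, exact permutation p = 0.0519) and *Cd247* (r = -0.39, exact permutation p = 0.285) had no such relation within sex at the same threshold. The 10 mutants share their libraries across markers, and the coefficients are not separate observations.

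**Figure D4:**
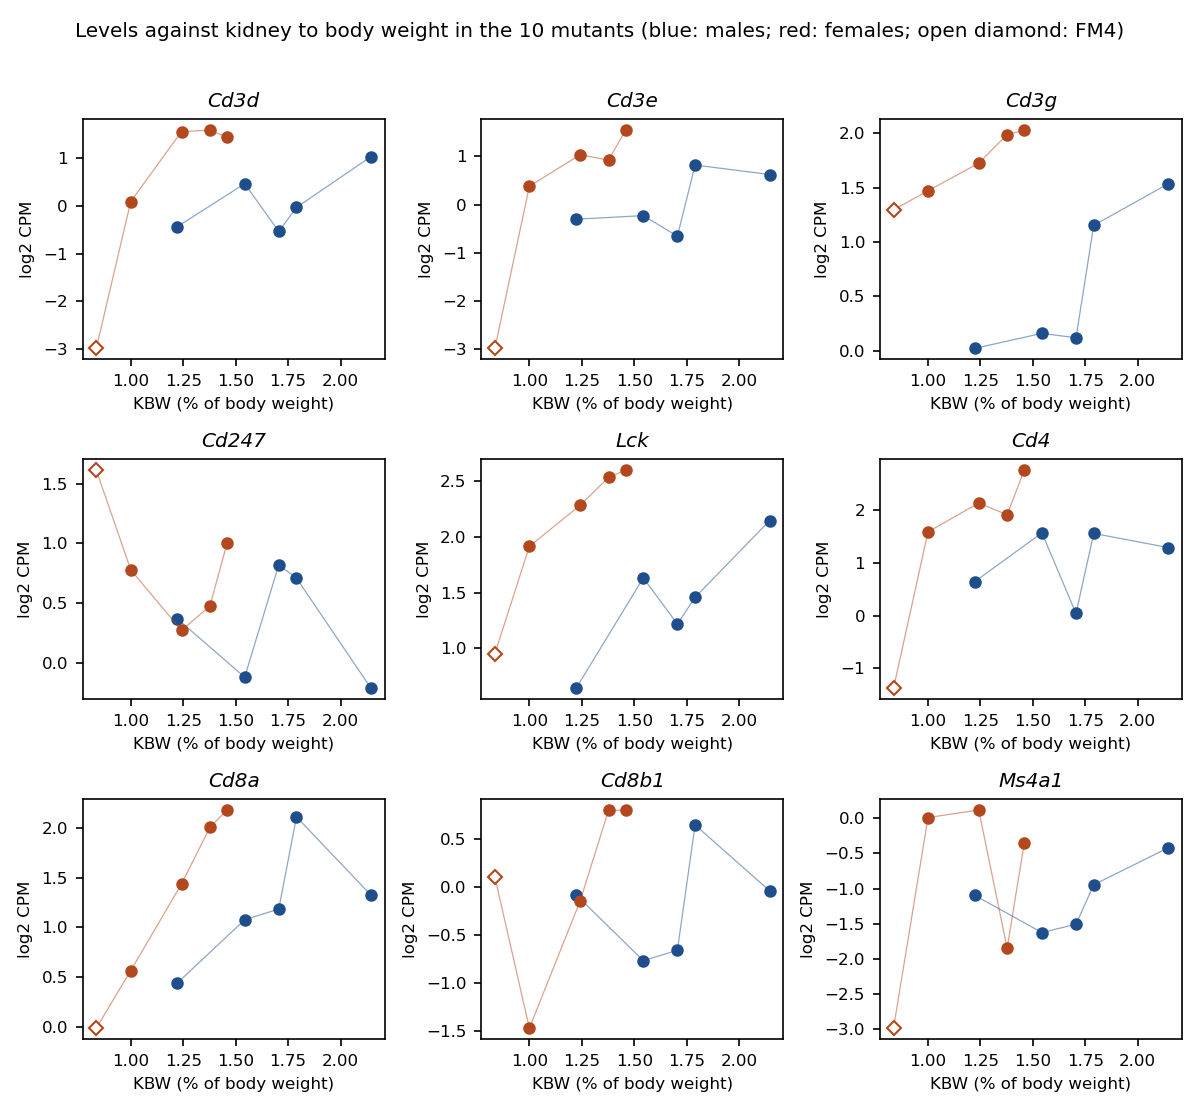
Log2 CPM of each marker (y axis) against KBW in percent of body weight (x axis) in the 10 mutants, males in blue and females in red, with thin lines joining the mice of each sex in order of KBW and FM4 as an open diamond. The 5 females had the same order for KBW as for *Lck*, *Cd3g* and *Cd8a*, and most males lay lower at larger KBW. The share of all genes with that order was not computed.

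In the 10 controls, whose KBW ran from 0.555 to 0.896, 1 of 9 markers had a permutation p under 0.05, against 10.4% of all genes. This was *Lck*, with the opposite sign (r = -0.67, permutation p = 0.0238, adjusted p = 0.439; rho = -0.66, permutation p = 0.0434, adjusted p = 0.749). Without FC4 and MC5, the controls farthest from the median KBW, no marker had p under 0.05. Centred within sex, *Lck* had r = -0.57 with an exact permutation p of 0.106.

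Other immune genes were compared in the same fits. Counts and medians of the joint comparison are given with all mice and then without FM4, values of single genes are with all mice, and all lists were written with earlier results of these data known. Over all genes tested, 10.0% were called higher, and 12.5% without FM4. Called lower were 831 of 14191 genes, and 1204 of 14274 without FM4. These shares are the background for every list below. Of 14 macrophage genes tested 12 were called higher in both, with a median log2 difference of 1.56 and 1.69. Of 10 pan-leukocyte genes 9 were called and then all 10, with a median of 1.18 and 1.29. *Ptprc*, which encodes CD45, the phosphatase found on all leukocytes, rose by 0.85 ± 0.16 (adjusted p = 0.000898). *Lyz2*, the lysozyme of macrophages and granulocytes and the most abundant gene of the macrophage list, rose by 2.49 ± 0.33 (adjusted p = 3.98e-05).

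T cell genes other than the markers were less uniform. Of 16 other T cell genes tested 2 were called higher and 1 lower, with a median of 0.61, and without FM4 6 of 17 were called higher and 1 lower, with a median of 0.75. With all mice, 2 of 16 lay near the 10.0% of all genes called higher, so this count does not set the list apart. *Prkcq*, a kinase used by T cells and other tissues, was the gene called lower (-0.73 ± 0.11, adjusted p = 7.68e-05), while *Gata3*, a transcription factor that also has roles outside T cells (0.03 ± 0.11, adjusted p = 0.858), was not called. The 2 called higher were *Thy1* and *Lcp2*, named after their values were seen, and without FM4 *Cd2*, *Cd28*, *Il7r* and *Zap70* were added. Of 22 genes of T cell receptor signaling 8 were called higher and 1 lower, and without FM4 11 higher and 1 lower, with a median of 0.34 and 0.37. The most abundant of these was *Csk*, the kinase that restrains *Lck*, which rose by 0.24 ± 0.06 (adjusted p = 0.00641), while *Plcg1*, a phospholipase downstream of the receptor (-0.10 ± 0.10, adjusted p = 0.496), and *Ptpn6*, an inhibitory phosphatase (0.07 ± 0.07, adjusted p = 0.508), were not called. All 3 are also made by many other cell types. The constant-region genes *Trac*, *Trbc1*, *Trbc2* and *Trdc* were listed but were not in the count table.

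Among natural killer and cytotoxic genes 1 of 5 was called higher, and without FM4 3 of 5, against 10.0% and 12.5% of all genes tested. The 1 was *Ccl5*, a chemokine made by activated T and killer cells (1.42 ± 0.22, adjusted p = 0.000127). Of 9 other B cell genes 3 were called higher and 1 lower, and without FM4 5 of 10 higher and 1 lower, with a median of 0.59 and 0.85. The gene called lower was *Cr2*, a complement receptor (-0.66 ± 0.14, adjusted p = 0.00204). The 3 called higher were *Cd37*, *Pou2af1* and *Spib*, named after their values were seen. Of 6 plasma cell genes 2 were called higher, *Jchain*, which joins secreted IgA and IgM (1.05 ± 0.23, adjusted p = 0.00221), and *Sdc1*, which epithelial cells also express (0.88 ± 0.17, adjusted p = 0.00104), and without FM4 3 were called. The listed plasma cell genes *Ighm*, *Igkc*, *Iglc2*, *Igha* and *Ighg2c* were not in the count table. Dendritic cell genes had 3 of 8 called in both, among them *Itgax*, which encodes CD11c (1.74 ± 0.21, adjusted p = 1.91e-05), and neutrophil genes 0 of 4 and then 1 of 4 (*Csf3r*).

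Signals that attract or organise lymphocytes had 7 of 12 called higher in both, against 10.0% and 12.5% of all genes tested, with a median of 0.94 and 0.95. *Cxcl16*, a chemokine for activated T cells, rose by 0.93 ± 0.13 (adjusted p = 5.51e-05), and *Cxcl10*, a ligand of CXCR3, a chemokine receptor of activated T cells, rose by 1.50 ± 0.16 (adjusted p = 5.49e-06), whereas *Il15* was not called (-0.05 ± 0.11, adjusted p = 0.783).

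**Figure D5:**
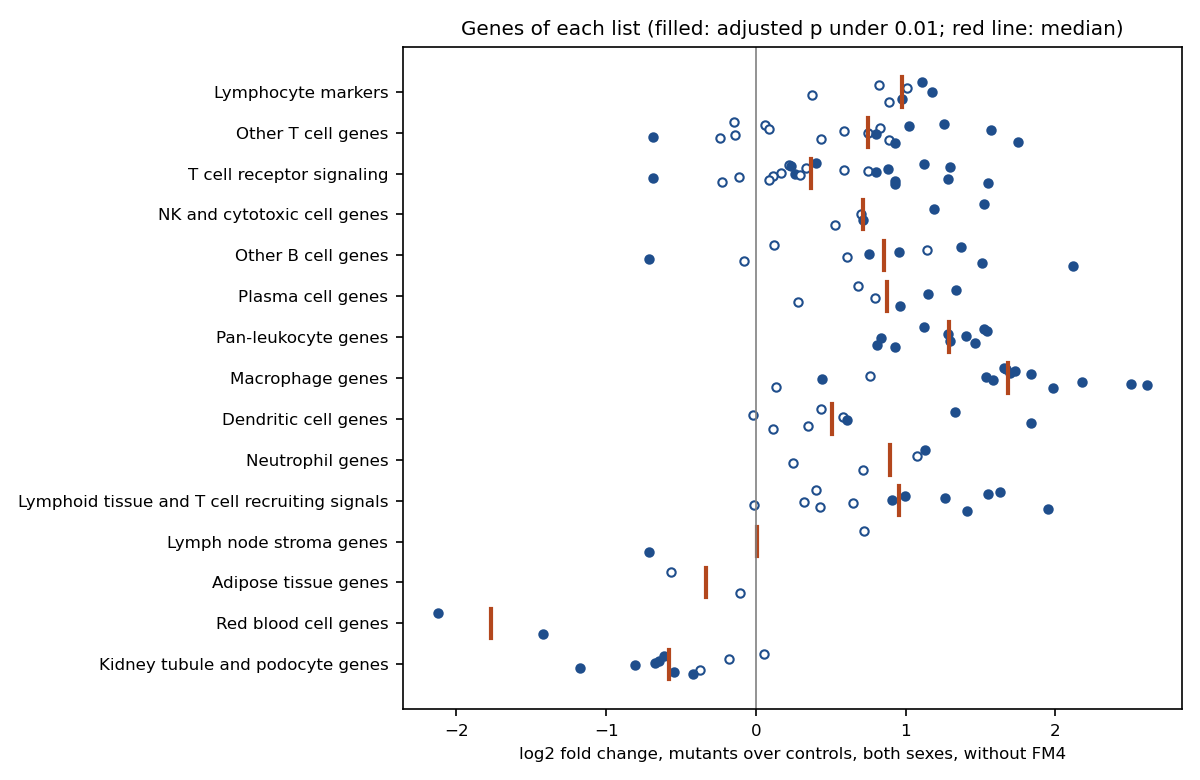
Log2 fold change of mutants over controls without FM4 in both sexes (x axis) for each gene tested (points), by list (y axis), with filled points for an adjusted p under 0.01 and a red line for the list median. The markers had a median of 0.97, below that of the macrophage genes at 1.69 and the pan-leukocyte genes at 1.29.

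Markers of tissue that could be taken along with a kidney were also read. Of the lymph node stroma list, *Ccl21a* had 0 counts in all 20 mice and *Glycam1* at most 4 counts in any mouse, and of the 2 genes tested 0 were called higher and 1, *Cr2*, lower. A gene at 0 in every library, as *Ccl21a* was, may not have been countable, so its 0 does not show that lymph node was absent. The summed level of the 5 listed genes ranged from 208 to 279 CPM in male controls, 180 to 744 in male mutants, 317 to 443 in female controls and 220 to 905 in female mutants, and *Clu*, which tubules express as well, made up nearly all of it. Adipose tissue genes summed to 0.451 to 54.7 CPM in male controls, 0.339 to 52.9 in male mutants, 0.491 to 132 in female controls and 0.599 to 447 in female mutants, with 0 of 2 tested genes called. Red blood cell genes summed to 61.7 to 75.1 CPM in male controls, 18.7 to 26.6 in male mutants, 75.2 to 99.8 in female controls and 18.7 to 58.7 in female mutants. The 4 listed globin genes were at 0 in every mouse, so this sum was that of *Slc4a1* (mean 43.9 CPM) and *Alas2* (9.76 CPM) alone. These were the genes tested, and 2 of 2 were called lower. With no globin counts, the sum was not shown to measure blood. Kidney tubule and podocyte genes had 6 of 10 called lower, and 7 of 10 without FM4. Over all genes tested, 831 of 14191 were called lower, and 1204 of 14274 without FM4. The part of these tissues in the marker values was not tested.

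The genes most like the CD3 chains across the mice were ranked. The measure was Pearson's r of log2 CPM with the mean of *Cd3d*, *Cd3e* and *Cd3g*, over 13751 genes with a mean of at least 1 CPM. Over all 20 mice the 5 highest were *Tcf7* (0.92), *Rnase6* (0.92), *Sash3* (0.90), *Clec4a1* (0.89) and *AW112010* (0.88). Without FM4 they were *Cyth4* (0.92), *AW112010* (0.91), *Emp3* (0.91), *Sox8* (0.91) and *Cd37* (0.90). *Tcf7* is a transcription factor of T cells, and *AW112010* was the only gene in both groups of 5. The markers themselves correlated with each other with a median r of 0.53 over 36 pairs (range -0.25 to 0.87), and 0.59 without FM4 (range -0.02 to 0.87). The pair most alike without FM4 was *Cd4* and *Lck* (0.87), and the least alike was *Cd247* and *Ms4a1* (-0.02). These coefficients come from the same libraries and describe shared variation of mice, groups and depth together.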

How the data were processed

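Total RNA of whole kidneys was sequenced on a NovaSeq, 1 library per mouse. After trimming by fastp 0.23.2, the authors mapped reads against mm10 using STAR 2.7.10b. The deposited values are raw counts per gene symbol, without normalization. The counting tool, gene annotation and strand setting are not given in the sources used here. Mice were grouped by sex and genotype from the labels.

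Counts were analysed with edgeR 4.0.16 in R 4.3.3, using TMM, filterByExpr, the quasi-likelihood test and Benjamini-Hochberg adjustment over all genes tested, with litter (or the 6 groups of sex and litter) as covariate and an adjusted p under 0.01. Log2 CPM used a prior count of 2. Relations with KBW used 100000 permutations, or all orders within sex. Separate mice are the replicates, and floors cover counting error only. A kidney weight was taken as that of 1 kidney. Genes were located with GENCODE on GRCm38, and promoter windows came from RefSeq. The members and lists were chosen with earlier results of these data known. All markers are named. From each list up to 3 genes highest in mean CPM are named, with the 5 genes most like the CD3 chains or *Ms4a1*, and others were named after their values were seen. The alternatives were DESeq2 1.42.0 (size factors or Wald test), library totals, other filters, no litter term, all mice in 1 fit and each mouse left out, and for KBW other scales and centring. Fits were also run on simulated counts, drawn independently and with no litter effect. Those runs do not test litter or a library like FM4, and their outcome is not given here.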

Additional observations from a re-analysis of the deposited data

Results flagged for a closer look

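Within the 4 groups of 5 mice, the gap of an extreme mouse to its nearest neighbour was set against the range of the group for the log2 CPM of each marker and for KBW, and values over 0.71 (Dixon's ratio) were noted. Of 40 groups tested 4 passed, and chance passes about 1 in 20. FM4 was far below the other female mutants for *Cd3e* (ratio 0.743) and *Cd4* (ratio 0.717). FC3 was far above the other female controls for *Cd4* (ratio 0.737), with 2.77 CPM against at most 1.52 CPM. MC5 had a KBW far above the other male controls (ratio 0.736), at 0.896 against at most 0.678.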

How the results depend on the processing

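No paired analysis was possible because the replicate numbers only name the mice and no label pairs single mice across groups. The litters that groups share were a covariate instead. The main limits are the low counts of the markers and the library of FM4. In the joint comparison of all mice, 1 marker was called, with 15.9% of all genes in either direction. Between 0 and 3 were called when each mouse in turn was left out, with 11.6% to 21.0% of all genes. The 3 were called without FM4, where the share was 21.0%. DESeq2's Wald test called 2 (*Lck* and *Cd247*), with 20.9% of all genes called in either direction. Without FM4, a combination chosen after seeing the data, the Wald test called 4 (26.2% of all genes), no filter on low counts 3 (15.9%) and no litter term 2 (19.8%). In females 0 were called, and between 0 and 2 with each mouse left out, with 0.0206% to 5.93% of all genes. The 2 were called without FM4, where the share was 5.93%. The Wald test called 1 (*Cd3g*, with 6.43% of all genes against 0.637% as reported). Without FM4 the Wald test called 4 (12.8%), no filter 4 (5.99%) and no litter term 1 (4.34%). Between male and female mutants 0 were called, and 2 by the Wald test without FM4 (*Cd3g* and *Cd4*, with 18.3% of all genes). For KBW in mutants 0 markers had p under 0.05, 5 when centred within sex, 4 when so centred without FM4 and 3 when centred within sex and litter (added after seeing the data), with 0 to 1 when each mouse was left out. In controls it was 1, and 0 on the CPM scale, centred within sex, centred within litter or without the 2 mice farthest from the median KBW, with 0 to 2 when each mouse was left out. For KBW with a mouse left out, the share over all genes was not computed, so these counts have no background.

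None of the estimates that changed sign was called as reported. Between the sexes in controls, *Cd3e* was -0.0775 with library totals, -0.11 with no litter term and -0.0808 with all 20 mice in 1 fit. The sex by genotype estimate of *Cd247* was 0.13 with no litter term, and without FM4 0.20 by the Wald test, 0.25 with no filter and 0.38 with no litter term. The KBW coefficient in mutants without the 2 mice farthest from the median was -0.21 for *Cd3d*, -0.12 for *Cd3e*, -0.22 for *Cd4*, -0.18 for *Lck*, 0.10 for *Cd247* and -0.53 for *Ms4a1*, and that of *Cd3g* was 0.87 centred within sex, also without FM4, and 0.94 centred within sex and litter. In controls it was 0.61 for *Cd3d* centred within litter, 0.00917 for *Cd3e* and 0.16 for *Cd8b1* without the 2 farthest mice, and 0.15 for *Cd8a* centred within sex. The cause was not tested.

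With each mouse left out, some ranges crossed 0. In males these were -0.18 to 0.74 for *Cd3d*, -0.00887 to 0.52 for *Cd3e* and -0.0678 to 0.95 for *Cd3g*, each below 0 only without MM1, and in females -0.23 to 0.36 for *Cd8a*. Between the sexes they were -0.0627 to 0.23 for *Cd3e*, -0.92 to 0.49 for *Cd3g* and -1.11 to 0.12 for *Cd247* in controls, and -0.39 to 0.34 for *Cd8a* and -0.61 to 0.0603 for *Cd8b1* in mutants. For the sex by genotype term they were -0.55 to 0.14 for *Cd4*, -0.17 to 0.42 for *Cd8b1*, -0.48 to 0.20 for *Lck* and -0.32 to 0.31 for *Cd247*. For KBW in mutants they were -0.00227 to 0.54 for *Cd3d*, -0.0236 to 0.53 for *Cd3e*, -0.27 to 0.0327 for *Cd3g*, -0.22 to 0.42 for *Cd4*, -0.0751 to 0.31 for *Cd8b1* and -0.21 to 0.48 for *Ms4a1*, and in controls -0.66 to 0.0652 for *Cd8a* and -0.56 to 0.0831 for *Ms4a1*.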

Other observations

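The CD3 complex genes disagreed within the library of FM4. It held 0 counts of *Cd3d* and 0 of *Cd3e*, but 27 of *Cd3g* and 34 of *Cd247*, and 21 of *Lck*. In the other 4 female mutants *Cd3d* had 16 to 57 counts, *Cd3e* 20 to 55 and *Cd3g* 45 to 78.

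For *Ms4a1*, the genes with the most similar log2 CPM over the 20 mice were *Cacna1d* (r = 0.79), *Fam184b* (0.77), *Gm1976* (0.73), *Suv39h2* (0.72) and *Foxj2* (0.72). Without FM4 they were *Cacna1d* (0.68), *Zfp408* (0.68), *Hspa12a* (0.68), *Mier3* (0.67) and *Dusp7* (0.66). None of the B cell list was among them, and with at most 16 counts of *Ms4a1* per mouse these are weak relations.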
